A study of Homo sapiens with 8 samples.

Results

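Laminins are the cross-shaped glycoproteins that organize the basement membrane, the thin sheet of matrix on which the epithelial cells of the breast duct rest. Each laminin is a trimer of 1 alpha, 1 beta and 1 gamma chain, and each chain is the product of its own gene, so the set of chain genes that a cell transcribes sets which trimers it can assemble. Nidogens are smaller glycoproteins that bind the laminin gamma-1 chain and link the laminin network to type IV collagen. In breast epithelium a laminin that holds the alpha-3 and beta-3 chains anchors basal cells through integrin alpha-6 beta-4, and loss of the basement membrane is the step that separates ductal carcinoma in situ from invasive carcinoma.

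The 9 genes described here are *LAMA3*, *LAMA4* and *LAMA5* (alpha chains), *LAMB1*, *LAMB2* and *LAMB3* (beta chains), *LAMC1* (a gamma chain), and *NID1* and *NID2* (nidogens), chosen by name. Of these, 8 had a value in the table of 13842 genes, and *NID1* was not analysed here. The alpha chain genes *LAMA1* and *LAMA2* are given beside them.

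RNA-seq had been performed on MCF10A, a non-malignant, immortalized line of human breast epithelium, and on DCIS.COM, its tumor-forming relative, which models ductal carcinoma in situ. Each line was stably transduced with the lentiviral vector pLOC carrying the lncRNA *MALINC1* (pLOC-*MALINC1*) or without an insert (pLOC-empty), and both kinds of cells went through blasticidin selection. This gave the 4 groups MCF10A pLOC-empty, MCF10A pLOC-*MALINC1*, DCIS.COM pLOC-empty and DCIS.COM pLOC-*MALINC1*, with 2 libraries each and 8 in all. MCF10A was grown in medium with horse serum, epidermal growth factor, hydrocortisone, insulin and cholera toxin, whereas DCIS.COM received horse serum alone, so the cell line and its medium cannot be told apart in any difference between the lines. No source used here says whether a transduced line was a pool or a single clone, nor whether the 2 libraries of a group came from separate cultures. The p-values therefore measure the spread between these libraries, which may be technical. In bulk RNA, fewer cells with a transcript and less of it per cell cannot be told apart.

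Values are log2 CPM, the reads of a gene scaled to the size of its library, and differences are log2 fold changes with their standard errors (SE). They were tested with limma across all 13842 genes with Benjamini-Hochberg adjustment. A gene is said to rise, fall or differ at an adjusted p below 0.01, and to be a differentially expressed gene (DEG) when it also changed by more than 2-fold. The libraries held between 20604377 and 37550457 reads on genes, and replicates correlated at Pearson's r of 0.996 to 0.997 across genes. A chi-square of the read counts of a pair, per degree of freedom, is near 1 when only counting error is present. It was 3.30 and 6.34 in MCF10A pLOC-empty and pLOC-*MALINC1*, and 3.78 and 20.6 in the corresponding DCIS.COM groups. By this measure of counts the DCIS.COM pLOC-*MALINC1* pair differed most, although its correlation of log2 CPM was the highest of the 4 groups (0.9969). The fit takes a single spread per gene over all groups. *MALINC1* itself had 24 to 34 reads in each pLOC-empty library and 311 to 840 in each pLOC-*MALINC1* library, a log2 fold change of 3.27 in MCF10A (SE 0.19, adjusted p = 3.97e-08) and 4.04 in DCIS.COM (SE 0.19, adjusted p = 6.93e-09). The 9 breast epithelial markers examined, keratins, *EPCAM*, *CDH1* and *TP63*, all had values. Their summed level was 19526 to 19684 CPM in MCF10A pLOC-empty and 26161 to 26801 in MCF10A pLOC-*MALINC1*, where *KRT17* led, and 6016 to 6218 CPM in the DCIS.COM libraries, where *KRT8* led. With *MALINC1*, 6 of the 9 markers rose and 1 fell in MCF10A, where 21.5% of all genes rose and 18.1% fell. In DCIS.COM 2 rose and 2 fell, against 16.4% and 16.7% of all genes. In MCF10A *KRT14*, *KRT19* and *TP63* were DEGs, 2 of them higher and 1 lower. The basal cell regulator *TP63* was among the higher and rose by 3.04 in MCF10A (SE 0.065, adjusted p = 1.08e-11). These shifts lie beside the laminin changes in MCF10A described here, and their part in them was not tested.

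With *MALINC1*, the laminin genes moved differently in the 2 lines. In DCIS.COM the transcripts of *LAMA3* and *LAMB3*, which encode the epithelial alpha-3 and beta-3 chains, fell by 1.002 and 0.89 on the log2 scale. In MCF10A *LAMA3* did not pass the test and *LAMB3* rose by 0.21. In MCF10A the largest changes were in chains that are widespread in mesenchymal and vascular basement membranes: *LAMA4* fell 2.08-fold, *LAMB2* fell 1.60-fold and *LAMB1* rose 1.59-fold. *LAMA5* rose in both lines, by 0.23 and 0.32.

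In counts, 6 of the 8 genes differed between pLOC-*MALINC1* and pLOC-empty in MCF10A, where 39.6% of all genes tested did. Of these, *LAMA5*, *LAMB1* and *LAMB3* rose (21.5% of all genes) and *LAMA4*, *LAMB2* and *LAMC1* fell (18.1%), and *LAMA4* was the 1 DEG (5.5% of all genes were DEGs, 2.99% as higher and 2.51% as lower). In DCIS.COM 6 of the 8 differed, against 33.2% of all genes. There *LAMA4*, *LAMA5*, *LAMB1* and *LAMC1* rose (16.4%), *LAMA3* and *LAMB3* fell (16.7%), and *LAMA3* was the 1 DEG (4.53% of all genes, 1.44% as higher and 3.08% as lower). The median size of the log2 fold change, regardless of direction, was 0.45 over the 8 genes and 0.23 over all genes in MCF10A, and 0.28 against 0.20 in DCIS.COM. The response itself differed between the lines for 6 of the 8 genes, against 35.9% of all genes. It was higher in DCIS.COM for *LAMA4*, *LAMB2* and *LAMC1* (15.6% of all genes) and lower for *LAMA3*, *LAMB1* and *LAMB3* (20.3%). The difference passed 2-fold for *LAMA4* upwards (3.98%) and for *LAMA3* and *LAMB3* downwards (5.22%), against 9.2% of all genes in either direction.

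**Figure D1:**
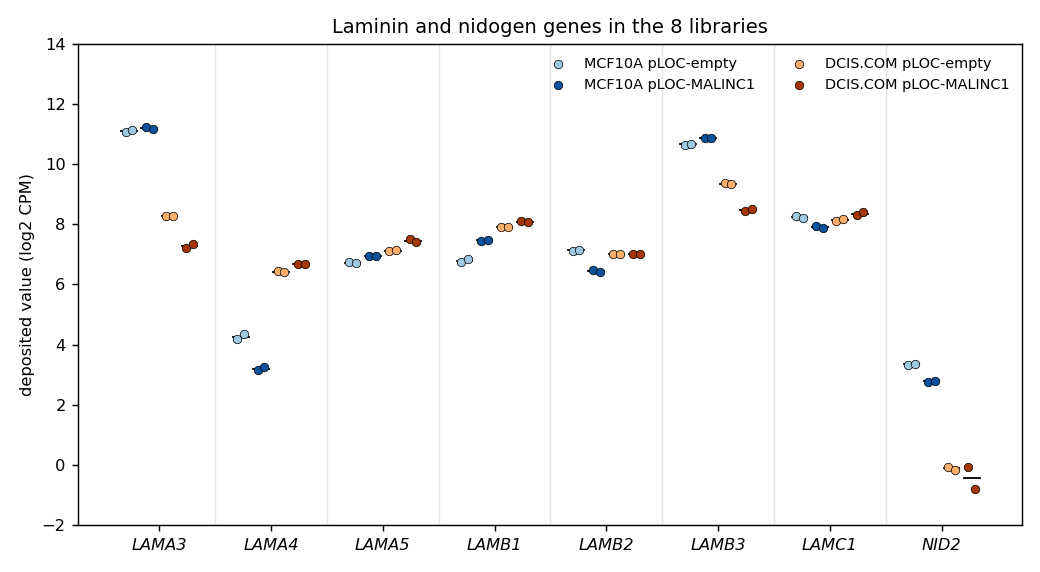
Deposited log2 CPM (vertical axis) of the 8 laminin and nidogen genes in each library. Points are single libraries, 2 for each group, and short lines are group means. *LAMA3* and *LAMB3* sit above 10 in MCF10A and drop to 7.22 to 7.33 and 8.44 to 8.50 in DCIS.COM pLOC-*MALINC1*, while *LAMA4* runs the other way, from 3.15 in MCF10A pLOC-*MALINC1* to 6.68 in DCIS.COM pLOC-*MALINC1*.

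**Figure D2:**
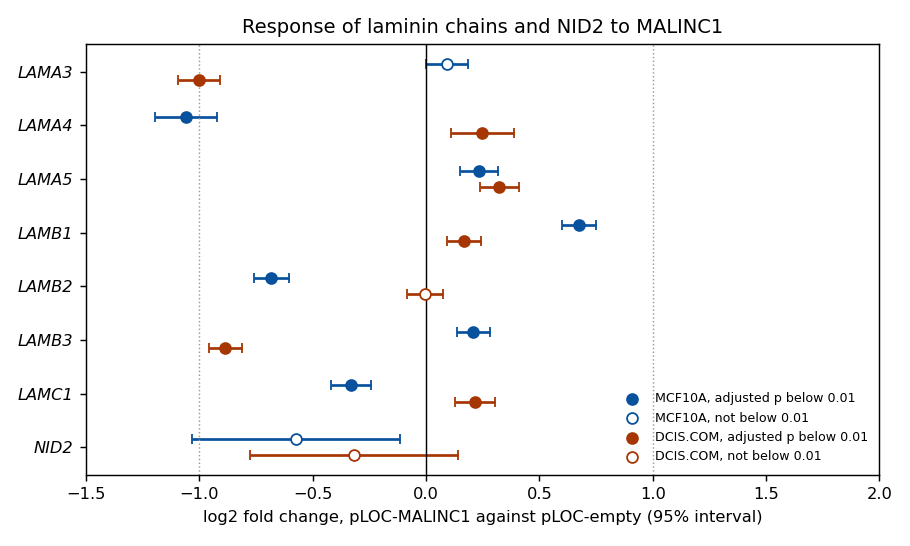
Log2 fold change of pLOC-*MALINC1* against pLOC-empty (horizontal axis) for the 8 genes, in MCF10A (blue) and DCIS.COM (brown). Bars are 95% confidence intervals without adjustment, filled points have an adjusted p below 0.01 in limma, and dotted lines mark a 2-fold change. The intervals of the lines lie on opposite sides of 0 for *LAMB3*, *LAMA4*, *LAMC1* and *LAMA3*, the last with an MCF10A interval that starts at 0.0015 and an adjusted p that did not pass.

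*LAMA3* encodes the alpha-3 chain, the defining alpha chain of epithelial anchoring laminin. The gene lies on the plus strand of chromosome 18 (GRCh37, 21269417 to 21536186), and its canonical transcript has 75 exons and 10651 nt. A shorter transcript of 5618 nt in 38 exons starts at an internal promoter at 21452984. The table holds 1 value for the whole gene, so these forms are not separated. *LAMA3* measured 11.06 and 11.13 log2 CPM in MCF10A pLOC-empty, 11.22 and 11.16 in MCF10A pLOC-*MALINC1*, 8.28 and 8.28 in DCIS.COM pLOC-empty, and 7.22 and 7.33 in DCIS.COM pLOC-*MALINC1*. All MCF10A libraries were thus above all DCIS.COM libraries, and within DCIS.COM the groups did not overlap. The fall in DCIS.COM was -1.002 (SE 0.042, adjusted p = 2.64e-09), which places *LAMA3* just past the 2-fold limit of a DEG. Without the first DCIS.COM pLOC-*MALINC1* library the value was -0.95 (adjusted p = 1.99e-07), still a fall but no longer a DEG. In MCF10A the difference was 0.09 (SE 0.042, unadjusted 95% interval 0.0015 to 0.18, adjusted p = 0.0811), which did not pass the test. The difference between these responses was -1.09 (SE 0.059, adjusted p = 1.93e-08).

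*LAMB3* encodes the beta-3 chain, which is found in trimers with the alpha-3 chain, and lies on the minus strand of chromosome 1 (GRCh37, 209788215 to 209825770). Its values were 10.65 and 10.67 log2 CPM in MCF10A pLOC-empty, 10.87 and 10.86 in MCF10A pLOC-*MALINC1*, 9.37 and 9.35 in DCIS.COM pLOC-empty, and 8.44 and 8.50 in DCIS.COM pLOC-*MALINC1*. No groups overlapped, and the order of the groups, with MCF10A pLOC-*MALINC1* highest and DCIS.COM pLOC-*MALINC1* lowest, was that of *LAMA3*, with the exception that the MCF10A groups of *LAMA3* did not differ. *LAMB3* fell by 0.89 in DCIS.COM (SE 0.033, adjusted p = 1.09e-09), a 1.85-fold fall, and rose by 0.21 in MCF10A (SE 0.033, adjusted p = 0.000243). The rise in MCF10A did not pass when that line was fitted alone (adjusted p = 0.0132). The responses differed by -1.09 (SE 0.047, adjusted p = 2.73e-09).

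*LAMA3* and *LAMB3* fell together in DCIS.COM. From a pathway analysis of the RNA-seq, the study placed JUN and JUN/FOS at the top of the pathways activated with *MALINC1* in both lines. JUN and FOS proteins form AP-1, a dimer that binds the letters TGACTCA or their reverse complement TGAGTCA. For these reasons RefSeq promoter windows (GRCh38.p14, from 250 bases before to 50 after the start) were searched for these letters on both strands. The windows of *LAMA3*, of the *LAMB3* start that holds a match, and of *LAMA4*, the DEG of the other line, are shown 5′ to 3′ on the strand of the gene, with the AP-1 letters in capitals. They cover chr18:23872770-23873069 on the plus strand, chr1:209651325-209651624 on the minus strand and chr6:112254518-112254817 on the minus strand.
LAMA3: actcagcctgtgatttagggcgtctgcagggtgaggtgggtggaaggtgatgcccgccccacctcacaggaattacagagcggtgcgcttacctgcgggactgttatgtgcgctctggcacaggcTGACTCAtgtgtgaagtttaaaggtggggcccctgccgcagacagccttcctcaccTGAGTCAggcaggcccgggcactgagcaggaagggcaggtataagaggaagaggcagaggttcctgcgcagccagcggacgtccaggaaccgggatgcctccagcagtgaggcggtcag
LAMB3: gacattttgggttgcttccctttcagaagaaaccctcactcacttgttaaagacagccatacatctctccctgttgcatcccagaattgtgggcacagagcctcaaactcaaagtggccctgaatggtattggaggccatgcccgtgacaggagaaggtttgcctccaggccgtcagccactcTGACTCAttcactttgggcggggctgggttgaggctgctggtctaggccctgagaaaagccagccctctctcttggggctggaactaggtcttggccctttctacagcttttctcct
LAMA4: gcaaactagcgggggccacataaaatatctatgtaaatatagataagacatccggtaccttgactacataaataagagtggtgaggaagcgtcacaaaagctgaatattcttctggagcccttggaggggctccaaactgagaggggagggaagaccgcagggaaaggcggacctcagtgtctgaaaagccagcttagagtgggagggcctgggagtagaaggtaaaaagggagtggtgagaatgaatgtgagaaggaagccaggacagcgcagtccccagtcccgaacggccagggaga

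The *LAMA3* window, whose start coincides in GRCh37 with that of the 5618 nt transcript, holds 2 matches, which begin 125 and 69 bases before the start. The start of the canonical *LAMA3* transcript was not searched. For *LAMB3* RefSeq gives 3 starts, and the window of 1 of them holds 1 match, 67 bases before the start. That start lies 20 bases from the nearest GENCODE start of *LAMB3*, whereas the 2 starts without a match each coincide with a GENCODE start. The windows of *LAMA4*, *LAMA5*, *LAMB1*, *LAMB2*, *LAMC1* and *NID2* hold none. Of all 35116 promoter windows in the RefSeq table, 4.95% hold the AP-1 letters, and of the 15356 windows of genes tested here 3.76% do. No binding was measured, and a match of letters describes the sequence alone.

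*LAMA4* encodes the alpha-4 chain, which lacks the large N-terminal arm and is best known from endothelial, muscle and fat cell basement membranes. It lies on the minus strand of chromosome 6 (GRCh37, 112429134 to 112576141). Its values were 4.18 and 4.35 log2 CPM in MCF10A pLOC-empty, 3.15 and 3.26 in MCF10A pLOC-*MALINC1*, 6.46 and 6.40 in DCIS.COM pLOC-empty, and 6.68 and 6.68 in DCIS.COM pLOC-*MALINC1*. No groups overlapped, and the lowest DCIS.COM library was above the highest MCF10A library. In MCF10A *LAMA4* fell by 1.06 (SE 0.064, adjusted p = 5.66e-08), from 459 and 522 reads to 252 and 315. Without the second MCF10A pLOC-empty library the fall was -0.97 (adjusted p = 1.56e-06), no longer past 2-fold. In DCIS.COM it rose by 0.25 (SE 0.064, adjusted p = 0.00695), and that rise did not pass when any 1 of the 4 DCIS.COM libraries was left out (adjusted p from 0.0246 to 0.0629). The difference between the responses, 1.31 (SE 0.090, adjusted p = 1.95e-07), was the largest among the 8 genes.

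Markers of other cell types were read beside *LAMA4*, a gene that endothelium and fibroblasts express. Of 7 endothelial markers, *PECAM1* alone had values, and its level was 0.974 to 1.03 CPM in MCF10A pLOC-empty, 0.680 to 0.808 in MCF10A pLOC-*MALINC1*, 6.06 to 7.21 in DCIS.COM pLOC-empty and 0.0874 to 0.177 in DCIS.COM pLOC-*MALINC1*. Of 9 fibroblast markers, *FAP* and *COL1A1* had values. Their sum was 85.3 to 86.1 CPM in MCF10A pLOC-empty and 41.3 to 42.6 in MCF10A pLOC-*MALINC1*, a drop beside that of *LAMA4*, and 6.62 to 7.16 and 2.13 to 2.22 CPM in the DCIS.COM groups, where *LAMA4* was higher. Of 6 leukocyte markers, *CD68* and *CD14* had values, which summed to between 4.11 and 14.3 CPM over all libraries. Each library came from a culture of a single epithelial cell line, and the part of these marker changes in the results was not tested.

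*LAMA5* encodes the alpha-5 chain, a long chain and a general component of adult epithelial basement membranes, and lies on the minus strand of chromosome 20 (GRCh37, 60883011 to 60942368). It measured 6.74 and 6.70 log2 CPM in MCF10A pLOC-empty, 6.96 and 6.95 in MCF10A pLOC-*MALINC1*, 7.11 and 7.15 in DCIS.COM pLOC-empty, and 7.50 and 7.40 in DCIS.COM pLOC-*MALINC1*. It was the 1 gene of the 8 that rose in both lines by a similar amount, by 0.23 in MCF10A (SE 0.039, adjusted p = 0.000343) and by 0.32 in DCIS.COM (SE 0.039, adjusted p = 3.08e-05). The difference between the responses was 0.09 (95% interval -0.03 to 0.21, adjusted p = 0.201). The rise in MCF10A did not pass without the mean-variance trend (adjusted p = 0.0125).

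*LAMB1* encodes the beta-1 chain, shared by the laminins of embryonic and many adult basement membranes. It lies on the minus strand of chromosome 7 (GRCh37, 107564244 to 107643658). The values were 6.76 and 6.83 log2 CPM in MCF10A pLOC-empty, 7.46 and 7.48 in MCF10A pLOC-*MALINC1*, 7.93 and 7.91 in DCIS.COM pLOC-empty, and 8.10 and 8.07 in DCIS.COM pLOC-*MALINC1*, so that the 4 groups were all separate and both DCIS.COM groups were higher. It rose by 0.67 in MCF10A (SE 0.034, adjusted p = 1.31e-08) and by 0.17 in DCIS.COM (SE 0.034, adjusted p = 0.00163). The responses differed by -0.51 (SE 0.048, adjusted p = 3.55e-06). The small rise in DCIS.COM did not pass when either pLOC-empty library or the first pLOC-*MALINC1* library of that line was left out (adjusted p from 0.0104 to 0.0171).

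*LAMB2* encodes the beta-2 chain, which replaces beta-1 in laminins of the neuromuscular junction and the kidney filter and is also made by other tissues. It lies on the minus strand of chromosome 3 (GRCh37, 49158547 to 49170551). It measured 7.12 and 7.15 log2 CPM in MCF10A pLOC-empty, 6.50 and 6.42 in MCF10A pLOC-*MALINC1*, 7.02 and 7.01 in DCIS.COM pLOC-empty, and 7.002 and 7.02 in DCIS.COM pLOC-*MALINC1*. The MCF10A pLOC-*MALINC1* libraries stood below the 6 others, which spanned 7.002 to 7.15. *LAMB2* fell by 0.68 in MCF10A (SE 0.036, adjusted p = 1.88e-08). In DCIS.COM the difference was -0.005 (95% interval -0.08 to 0.07, adjusted p = 0.929). The responses differed by 0.68 (SE 0.051, adjusted p = 4.44e-07).

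The beta chains therefore changed in opposite directions within MCF10A. The level of *LAMB1* minus that of *LAMB2* in the same library was -0.37 and -0.32 log2 CPM in MCF10A pLOC-empty and 0.96 and 1.06 in MCF10A pLOC-*MALINC1*. In DCIS.COM it was 0.91 and 0.90 in pLOC-empty, and 1.10 and 1.05 in pLOC-*MALINC1*. Per kb of canonical transcript (5650 and 5692 nt) these differences are nearly the same, but per kb of all exons joined (18.592 kb for *LAMB1* and 6.865 kb for *LAMB2*) *LAMB1* was below *LAMB2* in all 4 groups. The change of the difference between groups does not depend on length.

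*LAMC1* encodes the gamma-1 chain, the gamma chain of most laminins and the one that nidogens bind. It lies on the plus strand of chromosome 1 (GRCh37, 182992555 to 183114727). The values were 8.27 and 8.22 log2 CPM in MCF10A pLOC-empty, 7.94 and 7.89 in MCF10A pLOC-*MALINC1*, 8.11 and 8.17 in DCIS.COM pLOC-empty, and 8.31 and 8.41 in DCIS.COM pLOC-*MALINC1*. The MCF10A pLOC-*MALINC1* group was the lowest, and the 6 other libraries lay between 8.11 and 8.41. *LAMC1* fell by 0.33 in MCF10A (SE 0.040, adjusted p = 2.43e-05) and rose by 0.21 in DCIS.COM (SE 0.040, adjusted p = 0.000869), with a difference between the responses of 0.55 (SE 0.057, adjusted p = 7.35e-06). The rise in DCIS.COM did not pass without the first pLOC-empty library (adjusted p = 0.0161) or the second pLOC-*MALINC1* library (adjusted p = 0.0135) of that line.

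*NID2* encodes nidogen-2, which lies on the minus strand of chromosome 14 (GRCh37, 52471527 to 52535777) and was the lowest of the 8 genes in DCIS.COM. It measured 3.33 and 3.36 log2 CPM in MCF10A pLOC-empty (289 and 231 reads), 2.74 and 2.80 in MCF10A pLOC-*MALINC1* (237 and 183 reads), -0.06 and -0.18 in DCIS.COM pLOC-empty (19 and 17 reads), and -0.08 and -0.80 in DCIS.COM pLOC-*MALINC1* (30 and 17 reads). The lines were far apart and the DCIS.COM groups overlapped. In MCF10A both pLOC-*MALINC1* libraries were below both pLOC-empty libraries, but the difference of -0.57 (SE 0.21, 95% interval -1.03 to -0.12) did not pass, with an adjusted p of 0.0366. It passed with limma-voom on the recovered reads (-0.58, adjusted p = 0.000141) and with MCF10A fitted alone (adjusted p = 0.00880). With a pseudocount of 0.5 or 1 CPM it passed as well (adjusted p = 0.00466 and 0.00131). Leaving out either DCIS.COM pLOC-*MALINC1* library, in which this gene varied most, cannot change the value of -0.57, because each group has its own mean. It changes only the estimate of the spread, on which the call depends. Of 19 alternatives, 12 left the gene uncalled in MCF10A. In DCIS.COM the difference was -0.32 (95% interval -0.78 to 0.14, adjusted p = 0.237), at a depth of 17 to 30 reads. The value was 0.04 without the second pLOC-*MALINC1* library of that line.

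Some exons of these genes lie opposite to exons of other genes. The library kit, ScriptSeq, keeps strand, but the strand setting of the authors' read counting was not given in the sources used here. *NID2* shares 1909 bp of exon with *RTRAF* on the other strand. *LAMB1* shares 300 bp with *DLD*, *LAMA5* shares 244 bp with *ADRM1* and 118 bp with *LAMA5-AS1*, and *LAMA4* shares 206 bp with a lncRNA gene. If strand was not used in counting, reads from these stretches cannot be told apart. *LAMA3*, *LAMB2* and *LAMC1* had no such overlap, and *LAMB3* had none with a gene of the other strand.

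Between the lines with the empty vector, *LAMA3*, *LAMB3*, *NID2* and, by a small amount, *LAMB2* were lower in DCIS.COM, and *LAMA4*, *LAMA5* and *LAMB1* were higher. In that comparison 7 of the 8 genes differed, against 73.9% of all genes, 3 of them higher in DCIS.COM (37.9%) and 4 lower (36%). Of these 5 were DEGs, against 28.6% of all genes, 2 higher (15.6%) and 3 lower (13%). *LAMA3* was 7.04-fold lower in DCIS.COM (log2 -2.82, SE 0.042, adjusted p = 1.84e-14), *LAMB3* 2.46-fold lower (log2 -1.30, SE 0.033, adjusted p = 1.99e-12) and *NID2* 11.1-fold lower (log2 -3.47, SE 0.21, adjusted p = 7.12e-09). *LAMA4* was 4.49-fold higher (log2 2.17, SE 0.064, adjusted p = 6.50e-12) and *LAMB1* 2.18-fold higher (log2 1.13, SE 0.034, adjusted p = 8.99e-12). *LAMA5* was higher by 0.41 (SE 0.039, adjusted p = 7.28e-07). *LAMC1* differed by -0.10 (95% interval -0.19 to -0.01, adjusted p = 0.0329), which did not pass and turned to 0.05 under quantile normalization. *LAMB2* was lower by 0.12 on the log2 scale (SE 0.036, adjusted p = 0.00751), a difference that did not pass with a replicate block (adjusted p = 0.0115) or without any 1 library of either pLOC-empty group (adjusted p from 0.0207 to 0.0532) or of DCIS.COM pLOC-*MALINC1* (adjusted p = 0.0108 for each).

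With *MALINC1*, all 8 genes differed between the lines, against 73% of all genes, 5 of them higher in DCIS.COM (35.7%) and 3 lower (37.2%). *LAMA4* was a DEG on the higher side (14.4%) and *LAMA3*, *LAMB3* and *NID2* on the lower side (12.2%), against 26.6% in either direction. *LAMA3* was then lower in DCIS.COM with a log2 difference of -3.91 ( SE 0.042, adjusted p = 1.19e-15), *LAMB3* 5.26-fold lower (log2 -2.39, SE 0.033, adjusted p = 1.54e-14) and *NID2* 9.27-fold lower (log2 -3.21, SE 0.21, adjusted p = 1.72e-08). *LAMA4* was 11.1-fold higher (log2 3.47, SE 0.064, adjusted p = 1.30e-13). *LAMB1*, *LAMB2*, *LAMA5* and *LAMC1* were higher by 0.62, 0.56, 0.50 and 0.44 on the log2 scale. This comparison and the one with the empty vector use different libraries, but the 4 comparisons and the difference of responses are contrasts among the same 4 group means.

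*LAMA1*, the alpha-1 chain gene of early embryonic basement membranes, had 0 reads in all 4 MCF10A libraries and 89 to 144 reads in the DCIS.COM libraries. Against a floor of 3 reads per MCF10A library, it was at least 35.3-fold higher in DCIS.COM with pLOC-empty and at least 36.0-fold higher with pLOC-*MALINC1*. *LAMA2*, the alpha-2 chain gene of muscle and nerve, had 14 to 75 reads and was lower in DCIS.COM by 1.27 with pLOC-empty (SE 0.19, adjusted p = 4.58e-05). Exons of *LAMA1* share 1641 bp with a lncRNA gene on the other strand. Neither gene passed the test for *MALINC1* in either line, and *LAMB4* and *LAMC3* were not analysed here.

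To compare chains with each other, CPM were divided by the length of each gene's canonical transcript, and each gene's share of the summed CPM per kb of its chain type was computed. In MCF10A *LAMA3* made up 94.5% ± 0.17 (SD, n = 2) of the alpha chain signal with pLOC-empty and 94.7% ± 0.16 with pLOC-*MALINC1*. In DCIS.COM its share was 54.2% ± 0.11 with pLOC-empty and 32.7% ± 1.7 with pLOC-*MALINC1*. By this length the alpha chain pool went from a single dominant chain in MCF10A to shares of similar size in DCIS.COM pLOC-*MALINC1*. There *LAMA4* held 31.8% and *LAMA5* held 34.4% ± 1.8. In DCIS.COM pLOC-empty *LAMA4* held 22.1% ± 0.54 and *LAMA5* 22.7% ± 0.54, and in both MCF10A groups neither reached 5%.

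These alpha shares depend on the length taken for *LAMA3*. With the 5618 nt transcript in place of the canonical one, its share was 69.1% in DCIS.COM pLOC-empty and 48.0% in DCIS.COM pLOC-*MALINC1*, and 97.0% and 97.1% in MCF10A. By that length *LAMA4* held 24.6% and *LAMA5* 26.6% in DCIS.COM pLOC-*MALINC1*, so *LAMA3* kept the largest share and the shares were not of similar size. With the union of all exons the *LAMA3* shares were 94.4%, 94.4%, 55.4% and 33.7% in MCF10A pLOC-empty, MCF10A pLOC-*MALINC1*, DCIS.COM pLOC-empty and DCIS.COM pLOC-*MALINC1*. The order of the groups in DCIS.COM was the same under all 3 lengths.

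Among the beta chains *LAMB3* held 90.1% ± 0.10 and 90.9% of the summed CPM per kb in MCF10A pLOC-empty and pLOC-*MALINC1*, and 71.4% and 55.5% ± 0.86 in the corresponding DCIS.COM groups. The share of *LAMB1* went from 18.7% to 30.2% ± 0.79 and that of *LAMB2* from 9.92% to 14.2% between the DCIS.COM groups. With the union of all exons as the length, the *LAMB3* share in the DCIS.COM groups was 81.6% and 69.6%, that of *LAMB1* 7.52% and 13.3%, and that of *LAMB2* 10.9% and 17.1%. The order of *LAMB1* and *LAMB2* in DCIS.COM thus depends on the length, whereas the lower *LAMB3* share with *MALINC1* was found with both lengths. The level of *LAMB2* itself was 22.8 and 22.7 CPM per kb in DCIS.COM pLOC-empty and 22.5 and 22.8 with pLOC-*MALINC1* by canonical length, while the beta chain total was smaller in the latter.

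The totals differed as well. Summed over alpha chains, the level was 217.8 ± 7.3 CPM per kb in MCF10A pLOC-empty, 231.7 ± 6.9 in MCF10A pLOC-*MALINC1*, 53.9 ± 0.17 in DCIS.COM pLOC-empty and 44.6 ± 0.031 in DCIS.COM pLOC-*MALINC1* (SD, n = 2). The beta chain total was 447.0 ± 6.3, 511.6 ± 4.2, 229.0 ± 1.8 and 159.2 ± 2.2 CPM per kb in the same order. Per kb of canonical transcript, the alpha total was lower than the beta total in each group. These shares and totals were not tested beyond the fits of the single genes.

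**Figure D3:**
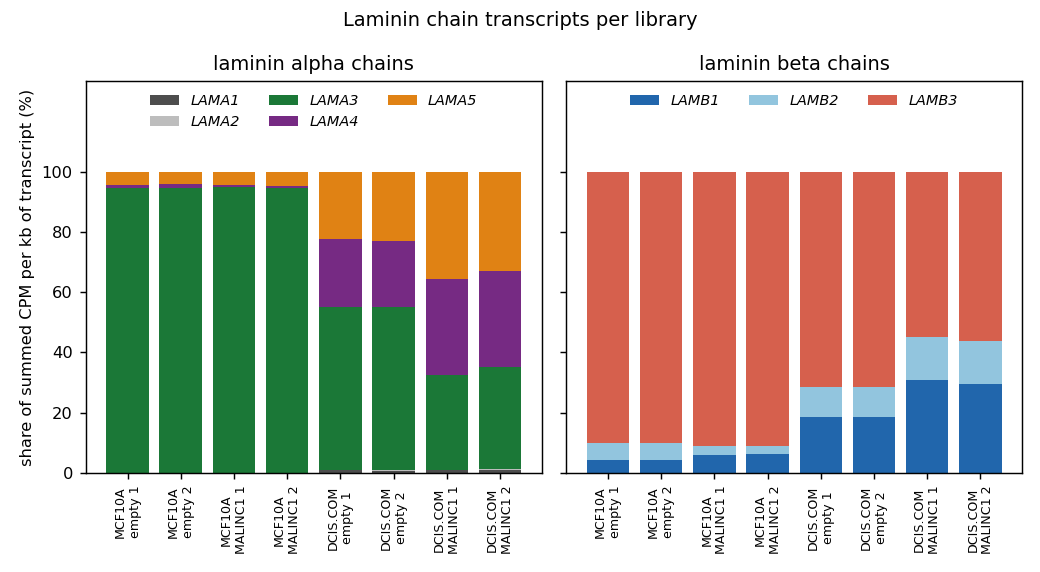
Share of each chain gene in the summed CPM per kb of canonical transcript (vertical axis, %) of the alpha and beta chains, with 1 bar for each of the 8 libraries. *LAMA3* fills at least 94.3% of the alpha bar in every MCF10A library, 54.1% to 54.2% in DCIS.COM pLOC-empty and 31.5% to 33.9% in DCIS.COM pLOC-*MALINC1*.

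Laminins act on cells through integrins, dystroglycan, syndecans and the Lutheran glycoprotein *BCAM*. Of 14 such receptor genes, 13 had values (*ITGA7* was not analysed here). In MCF10A 6 of them rose, 5 fell and 2 did not pass, where 21.5% of all genes rose and 18.1% fell. The median log2 fold change was 0.29 against 0.00 over all genes. In DCIS.COM 5 rose, 2 fell and 6 did not pass, where 16.4% of all genes rose and 16.7% fell, with medians of 0.08 and 0.01. DEGs made up 5.5% of all genes in MCF10A and 4.53% in DCIS.COM. These shares of all genes also stand beside the counts of the lists below. *ITGA6*, the alpha-6 integrin subunit, rose by 0.77 in MCF10A (SE 0.052, adjusted p = 1.39e-07) and by 0.28 in DCIS.COM (SE 0.052, adjusted p = 0.000767). Its partner *ITGB4* rose by 0.57 (SE 0.036, adjusted p = 9.83e-08) and 0.27 (SE 0.036, adjusted p = 7.56e-05). Both subunits of the integrin that binds the epithelial laminin were thus higher with *MALINC1* in both lines, also in DCIS.COM, where *LAMA3* and *LAMB3* were lower. *ITGB1*, the beta-1 subunit of the other laminin-binding integrins, fell by 0.30 in MCF10A (SE 0.040, adjusted p = 4.54e-05) and differed by 0.08 in DCIS.COM (SE 0.040, adjusted p = 0.117).

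The receptor DEGs were both syndecans, the heparan sulfate proteoglycans that bind laminin globular domains, and both in MCF10A. *SDC1* went from 8.70 and 8.81 to 9.97 and 9.96 log2 CPM, a rise of 1.21 (SE 0.038, adjusted p = 2.08e-10), and in DCIS.COM it stayed between 9.85 and 9.90 in all 4 libraries (0.01, SE 0.038, adjusted p = 0.819). *SDC2* went from 22 and 13 reads to 2 reads in each library, a 10.6-fold lower level by counting alone (exact 95% interval 3.78 to 41.0). Its log2 fold change, -2.42 in the fit, ranged from -3.11 to -0.61 over 18 alternative settings, so it did not pass 2-fold in all of them. In DCIS.COM it held 54 to 118 reads.

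The hemidesmosome is the plaque through which integrin alpha-6 beta-4 ties epithelial laminin to keratin filaments. Of its 6 genes, *ITGA6* and *ITGB4* among them, 3 rose, 1 fell and 2 did not pass in MCF10A, and 5 rose and 1 fell in DCIS.COM. *PLEC*, the keratin linker plectin, rose by 0.48 in DCIS.COM (SE 0.046, adjusted p = 3.78e-06) and differed by -0.07 in MCF10A (adjusted p = 0.214). The 1 gene that fell in DCIS.COM, *COL17A1*, which encodes a transmembrane collagen that binds the epithelial laminin, was named after its values were seen. It fell by 0.76 there (SE 0.035, adjusted p = 6.52e-09) and differed by 0.04 in MCF10A (SE 0.035, adjusted p = 0.333).

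Of 24 other basement membrane genes (type IV, VII, XV and XVIII collagens, proteoglycans, fibulins and laminin-binding glycoproteins), 20 had values. In MCF10A 6 rose, 7 fell and 7 did not pass, and in DCIS.COM 5 rose, 7 fell and 8 did not pass. Their median log2 fold changes were -0.14 and -0.07, against 0.00 and 0.01 over all genes. In MCF10A 6 of the 20 were DEGs, against 5.5% of all genes, 2 of them higher (2.99% of all genes) and 4 lower (2.51%). The 4 lower ones were type IV collagen genes, all 6 of which had values. The others, *COL4A5* and *COL4A6*, moved less there, at -0.55 (SE 0.050, adjusted p = 2.04e-06) and -0.18 (SE 0.066, adjusted p = 0.0345), and are named only to complete the 6. *COL4A1* and *COL4A2*, which form the main collagen network that nidogens tie to laminin, went from 8.55 and 8.58 to 7.37 and 7.22 log2 CPM and from 9.29 and 9.31 to 8.31 and 8.26. They fell by 1.27 (SE 0.045, adjusted p = 5.84e-10) and 1.01 (SE 0.031, adjusted p = 1.57e-10). The value of *COL4A2* went up to -0.985 when 1 library was left out, no longer past 2-fold. In DCIS.COM both rose, *COL4A1* by 0.34 (SE 0.045, adjusted p = 6.54e-05) and *COL4A2* by 0.20 (SE 0.031, adjusted p = 0.000230), the latter lost without the mean-variance trend. The annotated spans of these genes overlap at their starts on opposite strands of chromosome 13.

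*COL4A3* and *COL4A4*, chains of the collagen network of kidney and lung, also fell in MCF10A, by 1.70 (SE 0.21, adjusted p = 2.50e-05) and 2.04 (SE 0.14, adjusted p = 1.72e-07). In DCIS.COM they had only 15 to 46 reads per library. There *COL4A3* differed by 0.40 (adjusted p = 0.136) and *COL4A4* rose by 0.53 (SE 0.14, adjusted p = 0.00773), a call that was lost when any 1 of 7 of the 8 libraries was left out. *COL4A1* and *COL4A2* thus moved in the direction of *LAMA4* and *LAMC1* in each line.

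*TINAGL1*, a laminin- and integrin-binding matrix protein, showed the opposite pattern. It rose by 1.10 in MCF10A (SE 0.037, adjusted p = 3.44e-10) and fell by 0.92 in DCIS.COM (SE 0.037, adjusted p = 1.89e-09), from 9.35 and 9.36 to 8.46 and 8.41 log2 CPM. *SMOC1*, a SPARC-related basement membrane protein, likewise rose by 2.46 in MCF10A (SE 0.057, adjusted p = 1.69e-11) and fell by 0.65 in DCIS.COM (SE 0.057, adjusted p = 1.72e-06). *FBLN1*, which encodes fibulin-1, a binder of laminin and nidogen, fell by 3.39 in DCIS.COM (SE 0.062, adjusted p = 1.53e-12), from 5.92 and 5.98 to 2.46 and 2.66 log2 CPM, and by 0.75 in MCF10A (SE 0.062, adjusted p = 8.17e-07). *SMOC2* rose by 1.20 in DCIS.COM (SE 0.23, adjusted p = 0.00112) on 12 to 54 reads, a call lost without the first pLOC-*MALINC1* library of that line. *AGRN*, agrin, passed in neither line, at -0.10 in MCF10A (adjusted p = 0.0278) and at 0.01 with an adjusted p of 0.813 in the other line.

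Netrins carry laminin-like arms, and netrin-4 caps laminin by binding the gamma-1 chain. Of 6 netrin genes, 3 had values. *NTN4* fell by 0.69 in MCF10A (SE 0.042, adjusted p = 6.22e-08), from 8.79 and 8.82 to 8.16 and 8.06 log2 CPM, and was at 4.41 to 4.47 in all DCIS.COM libraries (-0.002, SE 0.042, adjusted p = 0.980). *NTN1* and *NTNG1* passed in neither line, and each was at 5 reads or fewer in all libraries of 1 line, *NTN1* in MCF10A and *NTNG1* in DCIS.COM.

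Of 17 genes for proteases that cut laminins or nidogens, 13 had values. In MCF10A 5 rose, 5 fell and 3 did not pass. In DCIS.COM 6 fell and 7 did not pass, with a median of -0.31 against 0.01 over all genes. *MMP14*, a membrane-bound metalloproteinase that cuts laminin, rose by 0.83 in MCF10A (SE 0.039, adjusted p = 6.94e-09) and fell by 0.36 in DCIS.COM (SE 0.039, adjusted p = 1.13e-05). *MMP2*, which MMP14 activates, fell by 1.04 in DCIS.COM (SE 0.098, adjusted p = 3.53e-06) and differed by 0.06 in MCF10A (adjusted p = 0.619). Its value in DCIS.COM ranged from -1.06 to -0.94 over the alternatives, so it did not pass 2-fold in all of them. *PLAT*, tissue plasminogen activator, rose by 2.18 in MCF10A (SE 0.043, adjusted p = 1.02e-11), from 2.82 and 2.86 to 4.99 and 5.05 log2 CPM.

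Among the lysosomal proteases *CTSB* (cathepsin B) fell by 0.40 in MCF10A (SE 0.032, adjusted p = 5.92e-07) and differed by 0.03 in DCIS.COM (adjusted p = 0.431), and *CTSS* (cathepsin S) fell by 1.05 in MCF10A (SE 0.12, adjusted p = 1.30e-05). The value of *CTSS* went up to -0.92 when 1 library was left out, no longer past 2-fold. The other protease DEGs rested on few reads. *ADAMTS1* had 1 and 0 reads in MCF10A pLOC-empty and 8 and 6 in MCF10A pLOC-*MALINC1*, a ratio of 11.6 (exact 95% interval 1.76 to 489.7). *TLL1*, a tolloid protease, had 5 reads in each DCIS.COM pLOC-empty library and 2 and 3 with *MALINC1*, a 3.22-fold lower level (exact 95% interval 1.002 to 12.0). These intervals cover counting error only, and both calls were lost with a pseudocount of 0.5 or 1 CPM.

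**Figure D4:**
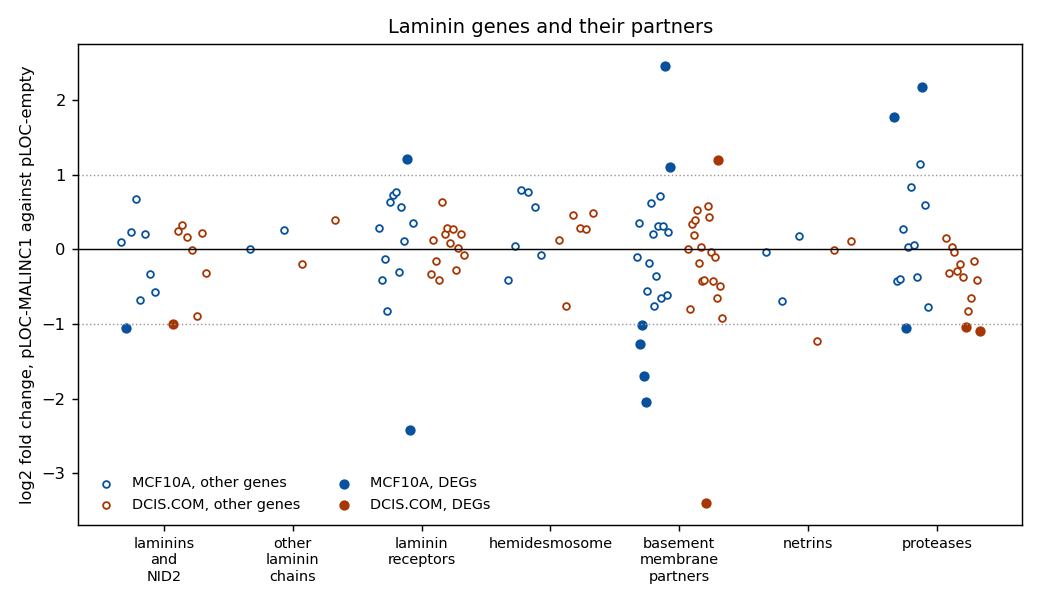
Log2 fold change of pLOC-*MALINC1* against pLOC-empty (vertical axis) for every gene with a value in the laminin and nidogen set and in 6 lists of related genes, in MCF10A (blue) and DCIS.COM (brown). Each point is 1 gene, filled points are DEGs, and dotted lines mark a 2-fold change. The basement membrane partners hold 6 DEGs in MCF10A, 4 of them type IV collagen genes below -1, where 5.5% of all genes were DEGs.

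The genes whose values across the 8 libraries were most like those of each member were found by the root mean square difference of log2 CPM after each gene was centred on its own mean, over 10678 genes at 5 CPM or more on average. For *LAMA3* they were *ZNF28* (0.15), *MMP28* (0.18) and *FYB1* (0.20), against a median difference of 1.71 over all genes. For *LAMA4* they were *LINC01002* (0.20), *RNF207* (0.24) and *PPM1H* (0.30), against a median of 1.51. For *LAMB3* the nearest gene was *VEGFC* (0.065, median 0.98). The others had *LRRC58* (*LAMA5*, 0.027), *FOXN2* (*LAMB1*, 0.024), *RALGDS* (*LAMB2*, 0.067), *TNKS* (*LAMC1*, 0.034) and *DOK4* (*NID2*, 0.19) as their nearest. These are descriptions over 4 groups of 2 libraries. Among the genes searched, no laminin gene was among the 3 nearest of another member. *NID2*, *LAMA1* and *LAMA2* averaged below 5 CPM, were not searched and so could not appear as a nearest gene.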

How the data were processed

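RNA-seq of 8 libraries (76 nt paired-end reads) was analysed from 1 deposited table. The authors used Rsubread for alignment to hg19 and featureCounts for read counts per gene, and deposited log2 CPM normalized with edgeR; per the values, a prior count of 2 reads scaled to library size had been added. Tool versions and strand setting were not given in the sources used here. Whole reads were recovered from the log2 CPM (100% of values under 40 CPM within 0.05 read), 20604377 to 37550457 per library, and were used for floors and counting intervals. Of the table's rows, 346 without a symbol stayed in the fit.

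These values entered a two-sided limma fit (version 3.58.1, R 4.3.3) with a mean for each of 4 groups and an eBayes trend. The filter, 0.5 CPM or higher in no fewer than 2 libraries, kept all 13842 genes. Benjamini-Hochberg adjustment covered all genes. The steps were tested on simulated data. Python 3.11.15, pandas 2.3.3, scipy 1.17.1 and matplotlib 3.10.9 made tables and figures. Lengths and coordinates are of GRCh37 with GENCODE annotation, promoters of RefSeq, where all 8 tested members matched.

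The members and gene lists were chosen with earlier results of these data known. Named genes are the members, the DEGs of each list in a *MALINC1* comparison, the 3 genes of each list with the highest mean CPM, and the most alike genes (3 for a member that was a DEG, otherwise 1). Alternatives changed pseudocount, filter, scaling, model and threshold, and single libraries were left out. Of the lists, 1 gene is not reported here.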

Additional observations from a re-analysis of the deposited data

Results flagged for a closer look

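For 6 of the 8 genes the response to *MALINC1* differed between the lines, by limma's contrast of DCIS.COM minus MCF10A. Over all genes 35.9% passed this contrast. On the log2 scale the difference was -1.09 for *LAMA3*, 1.31 for *LAMA4*, -0.51 for *LAMB1*, 0.68 for *LAMB2*, -1.09 for *LAMB3* and 0.55 for *LAMC1*, with adjusted p between 2.73e-09 and 7.35e-06. The contrast was not past the threshold for *LAMA5* (0.09, adjusted p = 0.201) and *NID2* (0.25, adjusted p = 0.504). With 2 libraries in each group, no library could be tested as standing apart from its group.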

How the results depend on the processing

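Counts are of the 8 genes, with 6 past the threshold in each line and 1 DEG in each. In MCF10A the DEG count was 0 with a pseudocount of 1 CPM and ranged from 0 to 1 when 1 library was left out, 0 without the second pLOC-empty library, where *LAMA4* was at -0.97. In DCIS.COM the count past the threshold was 3 without the mean-variance trend and ranged from 3 to 6 when 1 library was left out, 3 without the first pLOC-empty library. Its DEG count was 0 with a pseudocount of 0.5 or 1 CPM and with median centring, and 0 to 1 when 1 library was left out, 0 without the first pLOC-*MALINC1* library, where *LAMA3* was at -0.95. In a group left with 1 library, that library is assumed to vary like the others. For same-numbered libraries of different groups, the deviations from the group means correlated at -0.067 to 0.038 across genes. This cannot decide whether such libraries shared a culture or batch, because no reference value for a shared batch was available. With a replicate block the counts were 6 and 6 within the lines, 8 between the lines with *MALINC1*, 6 for the difference of responses and 6 in place of 7 between the lines with pLOC-empty, where *LAMB2* lost its call. No called value changed sign under any of the 19 alternatives. *LAMA3* in MCF10A, which was not called, went from 0.09 to -0.04 under quantile normalization. Over all genes, MCF10A had 761 DEGs, against 404 with a pseudocount of 1 CPM, 497 with 0.5 CPM and 487 with a filter at 5 CPM, and DCIS.COM had 627, against 354 with 1 CPM. The genes past the threshold numbered 5485 in MCF10A and 3101 when that line was fitted alone. In DCIS.COM they numbered 4592, against 2559 when fitted alone and 2915 without the trend. The cause of these shifts was not tested. Depth limited *NID2* in DCIS.COM, at 17 to 30 reads.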
